A study of Homo sapiens with 11 samples.

Results

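The 7 genes described here, ZEB1, ZEB2, PRRX1, SNAI1, SNAI2, TWIST1 and TWIST2, encode the transcription factors best known for driving the epithelial-mesenchymal transition. They were chosen by name, with Ensembl identifiers matched to GENCODE 29 symbols, and were 7 of the 58721 genes in the count table. All 7 had counts in each of the 11 libraries and passed the filter on low counts. RNA was measured by poly(A) sequencing in A375, an established melanoma cell line with an activating BRAF mutation, bought from ATCC, grown in DMEM with serum and labelled as WT for genotype. The withdrawn group held 5 libraries from cells kept in 2 nM trametinib for 8 weeks and then without drug for 4 weeks. The persister group held 5 libraries from cells that had spent 8 weeks in 2 nM trametinib, an inhibitor of the MEK kinases downstream of BRAF. The parental group was 1 library of untreated cells, which has no spread of its own. Each withdrawn sample carries the number of the persister culture it came from. All libraries come from 1 cell line, and no source says that the 5 cultures were selected independently, so the p-values cover sample-to-sample spread only, and that spread may be technical.

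These factors bind E-box or homeodomain motifs in DNA and shift cells between an adherent, epithelial programme and a migratory, mesenchymal one. ZEB1, ZEB2, SNAI1 and SNAI2 are zinc-finger proteins that repress the E-cadherin gene CDH1, whereas TWIST1 and TWIST2 are basic helix-loop-helix proteins that pair with E proteins and PRRX1 is a homeodomain protein of limb and craniofacial mesenchyme. Melanocytes are not epithelial cells and arise from the neural crest, where these factors act in normal development. In melanoma, ZEB2 and SNAI2 are known from the melanocytic state and ZEB1 and TWIST1 from less differentiated, invasive states.

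The promoter windows of the ZEB1, ZEB2, PRRX1 and TWIST2 genes are shown, for 4 of the 5 members that changed after withdrawal, 3 upward and TWIST2 downward. Each window runs 5′ to 3′ over 300 bases, 250 before the RefSeq start site, in the GRCh38.p14 build. The ZEB1 window is chr10:31318167-31318466 on the plus strand, the ZEB2 window chr2:144520070-144520369 on the minus strand, the PRRX1 window chr1:170663881-170664180 on the plus strand and the TWIST2 window chr2:238847835-238848134 on the plus strand. Capitals mark CAGGTG, the E-box that ZEB and SNAI proteins bind, which was searched on both strands (CACCTG is the same site read from the other strand).
ZEB1 promoter: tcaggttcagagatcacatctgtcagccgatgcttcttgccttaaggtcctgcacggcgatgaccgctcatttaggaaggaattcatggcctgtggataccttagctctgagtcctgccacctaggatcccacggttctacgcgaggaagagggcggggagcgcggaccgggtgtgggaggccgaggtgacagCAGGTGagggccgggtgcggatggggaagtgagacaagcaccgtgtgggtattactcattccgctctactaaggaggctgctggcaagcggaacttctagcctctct
ZEB2 promoter: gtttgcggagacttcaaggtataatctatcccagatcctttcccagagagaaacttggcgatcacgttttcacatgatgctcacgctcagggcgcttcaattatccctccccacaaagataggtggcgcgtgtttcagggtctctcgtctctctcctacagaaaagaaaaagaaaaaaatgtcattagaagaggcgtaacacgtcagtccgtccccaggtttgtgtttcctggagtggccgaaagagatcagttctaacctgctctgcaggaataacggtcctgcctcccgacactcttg
PRRX1 promoter: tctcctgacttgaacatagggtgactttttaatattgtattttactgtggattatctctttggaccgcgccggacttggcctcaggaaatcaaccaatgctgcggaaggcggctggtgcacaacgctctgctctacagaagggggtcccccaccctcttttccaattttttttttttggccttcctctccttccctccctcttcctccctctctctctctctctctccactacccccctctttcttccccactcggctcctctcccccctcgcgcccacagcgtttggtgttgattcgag
TWIST2 promoter: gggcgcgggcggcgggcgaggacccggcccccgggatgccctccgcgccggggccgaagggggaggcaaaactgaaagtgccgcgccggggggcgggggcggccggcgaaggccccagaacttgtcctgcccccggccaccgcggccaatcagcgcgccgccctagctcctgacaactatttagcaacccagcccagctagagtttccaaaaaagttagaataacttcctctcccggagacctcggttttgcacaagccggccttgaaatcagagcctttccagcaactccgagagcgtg
The ZEB1 window held 1 such E-box, with its first base at position -57 from the start site, and the ZEB2, PRRX1 and TWIST2 windows held none. Of the 35116 windows of this length in the RefSeq table, 20.6% held at least 1. The printed ZEB1 window is 1 of 7 that RefSeq gives for this gene, of which 2 held the motif. The RefSeq start sites behind the ZEB2 and PRRX1 windows lie 4464 and 1403 bases from the gene starts of GENCODE 29. SNAI1, SNAI2 and TWIST1 are not shown.

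ZEB1 and ZEB2 are also the best known targets of the miR-200 family, small RNAs of epithelial cells, so the mature RefSeq sequences are printed with the seed, bases 2 to 8, in capitals. The first 3 share 1 seed and the last 2 share another that differs at a single base.
hsa-miR-200b-3p: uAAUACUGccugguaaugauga
hsa-miR-200c-3p: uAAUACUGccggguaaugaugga
hsa-miR-429: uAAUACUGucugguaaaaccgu
hsa-miR-200a-3p: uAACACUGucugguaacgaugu
hsa-miR-141-3p: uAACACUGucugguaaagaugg
One match to the first seed is shown for each ZEB gene, in DNA letters with the seed match in capitals, at chr10:31527618-31527640 on the plus strand for ZEB1 and chr2:144389052-144389074 on the minus strand for ZEB2 (GRCh38).
ZEB1 site: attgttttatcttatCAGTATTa
ZEB2 site: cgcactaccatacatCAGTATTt
In the longest annotated 3′ UTR of each gene, CAGTATT occurred 6 times in ZEB1 (2549 bases) and 5 times in ZEB2 (5370 bases). Among genes with a UTR within 20% of that length, 26% of 2384 genes (ZEB1) and 45.7% of 1117 genes (ZEB2) had any match, and 0% had as many. SNAI2 had 1 match, and SNAI1, TWIST1, TWIST2 and PRRX1 had 0. CAGTGTT, the match to the other seed, occurred 3 times in ZEB1 and 4 times in ZEB2 and in none of the other members. Poly(A) counts do not measure mature miRNAs. MIR200CHG, the host RNA of miR-200c and miR-141, had at most 1 count in any library.

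The libraries held 56513920 to 82984566 counts in total, and 23693 genes passed the filter on low counts and were tested. Values are counts per 1000000 (CPM) of the TMM-scaled library size, and fold changes come with edgeR's quasi-likelihood test and Benjamini-Hochberg adjustment over all genes tested, with a threshold of 0.05. The melanoma label was checked on 12 markers, whose summed level was 1098 to 1210 CPM in withdrawn, 442 to 1071 CPM in persister and 828 CPM in parental cells. Of the 11 tested, 5 rose and 3 fell in persister against parental cells, 45.5% and 27.3% beside 16.1% and 15.1% of all genes tested. DCT, MLANA and TYRP1, of pigment cells, averaged 424, 16.0 and 4.34 CPM in persister cells, against 2.94, 1.15 and 0.122 CPM in the parental library. Other markers did not follow them. S100B had 448 to 2015 counts in persister libraries against 4684 counts in the parental library. S100A1 had 120 to 312 counts against 722 counts, and TYR had at most 7 counts in any library. SOX10, the neural crest factor, averaged 814 CPM in withdrawn and 51.9 CPM in persister cells and stood at 635 CPM in parental cells, while MITF averaged 138 CPM in withdrawn and 102 CPM in persister cells and stood at 78.4 CPM in parental cells. Persisters 1 and 5 stood apart in the cell cycle marker MKI67, at 154 and 45.4 CPM, against 496 to 707 CPM in the other 3 persister libraries and 865 CPM in parental cells. Mitochondrial genes took 3.15 to 3.70% of counts in withdrawn, 4.51 to 9.28% in persister and 2.96% in parental cells. What these differences contribute to the members' values was not tested. In bulk RNA, fewer cells of a type and less RNA per cell cannot be told apart.

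ZEB1, PRRX1 and, short of the threshold, ZEB2 were lower in persister than in parental cells, whereas SNAI2 and TWIST2 were higher. Of the 7 genes, 2 rose and 2 fell, where 31.2% of all genes tested were called in this comparison (16.1% higher and 15.1% lower). All 5 persister libraries lay on 1 side of the parental library for 5 of the 7 genes, above it for 2 and below it for 3, against 63.6% of all genes tested (32.7% above and 30.9% below). After withdrawal ZEB1, ZEB2, SNAI1 and PRRX1 rose and TWIST2 fell relative to persister cells, 5 of 7 genes where 52.5% of all genes were called (24.5% higher and 28.0% lower). The withdrawn and persister libraries did not overlap for those 5 genes, against 40.6% of all genes (20.3% in each direction). Between withdrawn and parental cells edgeR called 0 of the 7, where 0.431% of all genes were called (0.312% higher and 0.118% lower). The withdrawn libraries all lay above the parental one for 4 genes and below it for 1, against 63.8% of all genes on 1 side (33.0% above and 30.8% below). SNAI1 and SNAI2 had an unadjusted p under 0.05 there, and DESeq2 and limma-voom also called 0. Each pair of comparisons shares the libraries of 1 group, so their directions are not independent of each other.

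**Figure D1:**
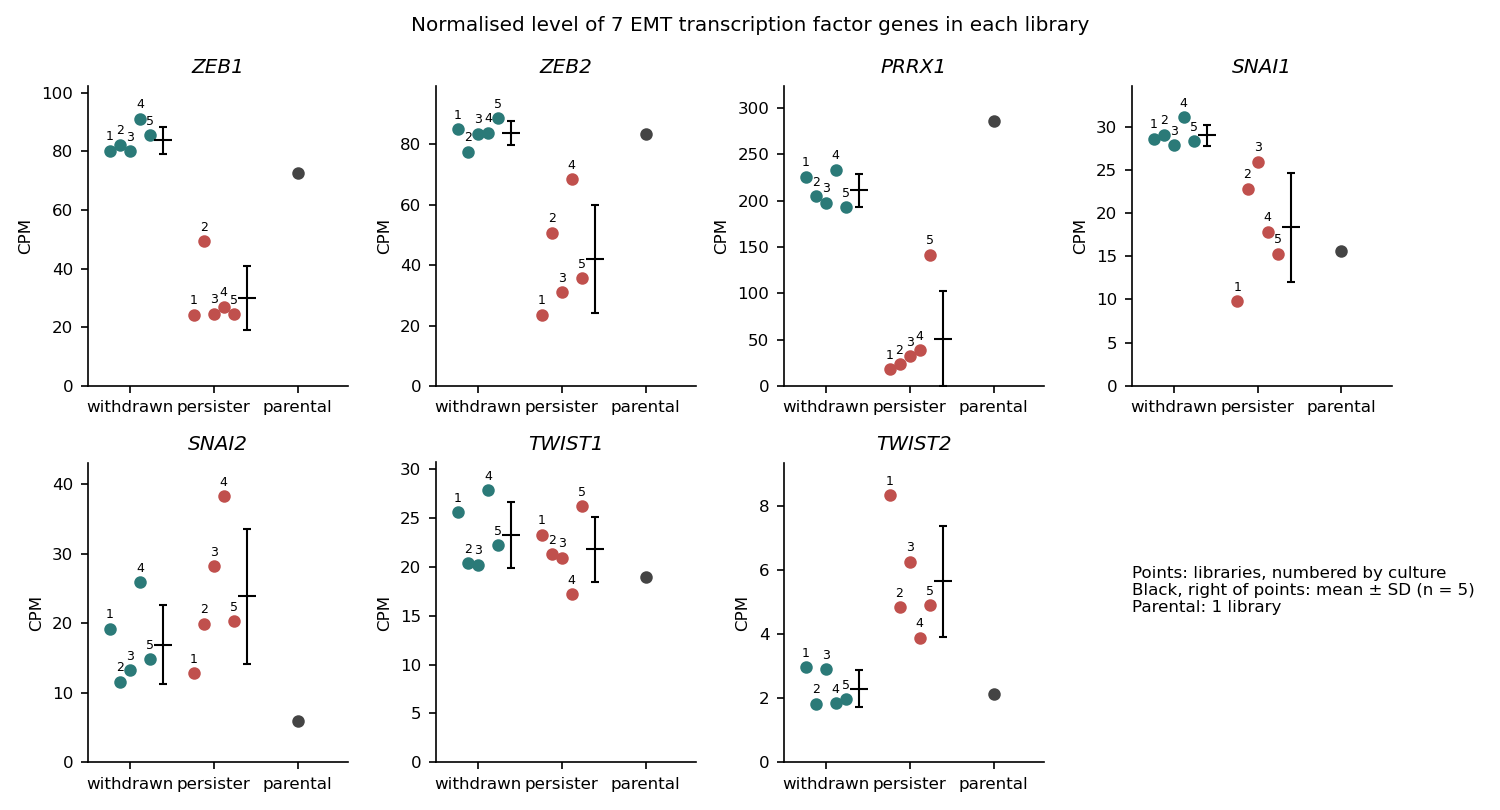
Normalised level in CPM (vertical axes, from 0) of each gene in the 5 withdrawn, 5 persister and 1 parental libraries; numbers give the culture and black bars the mean and SD of 5 libraries. The withdrawn libraries of ZEB1, ZEB2 and PRRX1 lie above all persister libraries, those of TWIST2 lie below them, and PRRX1 in persister 5 (141.5 CPM) stands far above the other persister libraries.

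ZEB1 (ENSG00000148516, chr10:31318495-31529814, plus strand, GRCh38), a repressor of epithelial genes, was lower in persister than in parental cells and rose after withdrawal. Withdrawn libraries 1 to 5 had 80.3, 82.2, 80.1, 91.1 and 85.5 CPM, persister libraries 1 to 5 had 24.3, 49.4, 24.6, 27.0 and 24.4 CPM, and the parental library had 72.5 CPM. The persister libraries were all below the parental one, persister 2 was the highest of them, and the withdrawn libraries were all above it. The level was 2.42-fold lower in persister than in parental cells (log2 fold change -1.28 ± 0.29, SE; adjusted p = 0.00734). Withdrawn cells had 2.80-fold more than persister cells (log2 fold change 1.49 ± 0.19; adjusted p = 5.91e-05). Withdrawn and parental cells differed by a log2 fold change of 0.21 ± 0.33 (adjusted p = 0.811), which did not pass. ZEB1 shares 366 of its 8650 exon bases with ZEB1-AS1 on the opposite strand, and whether counting used the strand is not stated. ZEB1-AS1 itself had 225 to 288 counts in withdrawn, 140 to 341 counts in persister and 147 counts in parental libraries and passed no comparison.

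ZEB2 (ENSG00000169554, chr2:144364364-144524583, minus strand), the paralogue of ZEB1, varied more than ZEB1 among persister cultures, with a highest value 2.91 times the lowest against 2.03 times. Withdrawn libraries 1 to 5 had 85.1, 77.5, 83.5, 83.8 and 88.7 CPM, persister libraries had 23.6, 50.7, 31.1, 68.5 and 35.6 CPM, and the parental library had 83.4 CPM. Persister 4 kept most of the parental level, persister 1 the least, and the parental value lay within the withdrawn range. The fold change of persister against parental cells was -0.99 ± 0.38 on the log2 scale and did not pass (adjusted p = 0.0707). Without persister 4 it passed, at -1.24 ± 0.27 (adjusted p = 0.00645). Withdrawn cells had 2.00-fold more than persister cells (log2 fold change 1.00 ± 0.24; adjusted p = 0.00484). Against parental cells the withdrawn level differed by 0.005 ± 0.41 on the log2 scale (adjusted p = 1), with a sign that turned under other scaling. The ratio of ZEB1 to ZEB2 per kilobase of transcript was 1.44 to 1.66 in withdrawn libraries, 1.58, 1.49, 1.21, 0.602 and 1.05 in persisters 1 to 5, and 1.33 in the parental library. Persister 4 was the 1 library in which ZEB2 exceeded ZEB1 on this scale. ZEB2 shares 1299 of 25058 exon bases with ZEB2-AS1, which had 0 to 10 counts per library.

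PRRX1 (ENSG00000116132, chr1:170662728-170739419, plus strand), the homeodomain factor of mesenchyme, had the largest fold change of the 7 in both comparisons with persister cells. The 5 withdrawn libraries had 226, 205, 198, 233 and 193 CPM, persister libraries had 18.1, 23.7, 31.9, 38.6 and 141.5 CPM, and the parental library had 285 CPM. Persister 5 retained a level several-fold above the other persisters but below every withdrawn library, so the groups did not overlap, and all withdrawn libraries were below the parental one. The highest persister value was 7.83 times the lowest, against 1.21 times among withdrawn libraries. PRRX1 was 5.62-fold lower in persister than in parental cells (log2 fold change -2.49 ± 0.72; adjusted p = 0.0232). Without persister 5 the log2 fold change was -3.34 ± 0.27 (adjusted p = 1.51e-05). Withdrawn cells had 4.15-fold more than persister cells (2.05 ± 0.50 on the log2 scale; adjusted p = 0.00562), and 2.91 ± 0.20 without persister 5 (adjusted p = 1.51e-06). The log2 fold change of withdrawn against parental cells was -0.44 ± 0.81 (adjusted p = 0.847). Persister 5, the library with the highest PRRX1 among persisters, had the lowest MKI67. Persister 1, the next lowest in MKI67, had the lowest PRRX1. A link between the levels of MKI67 and PRRX1 was not tested.

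SNAI1 (ENSG00000124216, chr20:49982999-49988886, plus strand), a fast-turnover repressor of CDH1, did not differ detectably between persister and parental cells and was highest after withdrawal. In culture order, withdrawn libraries had 28.6, 29.1, 27.9, 31.1 and 28.3 CPM, persister libraries had 9.83, 22.8, 25.9, 17.8 and 15.3 CPM, and the parental library had 15.6 CPM. The parental value fell inside the persister range, and every withdrawn library was above every other library, though only slightly above persister 3. The log2 fold change was 0.23 ± 0.37 for persister against parental cells (adjusted p = 0.658). It was 0.51 ± 0.18 without persisters 1 and 5, where it passed (adjusted p = 0.0449). Withdrawn cells had 1.58-fold more than persister cells (0.66 ± 0.21 on the log2 scale; adjusted p = 0.0194). Withdrawn against parental cells gave 0.89 ± 0.39 (adjusted p = 0.30), and leaving out persisters 1 and 5 gave 0.89 ± 0.18 with an adjusted p of 0.0156. In a fit of the withdrawn and parental libraries alone, in which the single parental library is assumed to vary as little as the withdrawn ones, SNAI1 (0.88 ± 0.09; adjusted p = 3.3e-05) and PRRX1 (-0.45 ± 0.09; adjusted p = 0.00418) passed.

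SNAI2 (ENSG00000019549, chr8:48917604-48921740, minus strand), also called Slug, a factor of neural crest and melanocytes, was higher in persister than in parental cells. Withdrawn libraries 1 to 5 had 19.2, 11.6, 13.3, 25.9 and 14.8 CPM, persister libraries had 12.9, 19.97, 28.2, 38.3 and 20.3 CPM, and the parental library had 6.03 CPM. Every treated library, with or without the drug at harvest, was above the parental one, the withdrawn and persister ranges overlapped, and culture 4 was the highest in both states. SNAI2 was 3.97-fold higher in persister than in parental cells (1.99 ± 0.60 on the log2 scale; adjusted p = 0.0268). Withdrawn against persister cells gave -0.50 ± 0.29 (adjusted p = 0.177), which passed without persisters 1 and 5 (-0.77 ± 0.29; adjusted p = 0.0482). The level in withdrawn cells was 2.81 times that in parental cells, a log2 fold change of 1.49 ± 0.58 that did not pass (adjusted p = 0.246).

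TWIST1 (ENSG00000122691, chr7:19020991-19117672, minus strand), a basic helix-loop-helix factor of cranial mesenchyme, had the narrowest range across persister cultures. The withdrawn libraries had 25.6, 20.3, 20.2, 27.8 and 22.2 CPM, persister libraries had 23.3, 21.3, 20.9, 17.2 and 26.2 CPM, and the parental library had 19.0 CPM. The withdrawn and persister ranges overlapped, and the parental value fell inside the persister range and just below the withdrawn one. No comparison passed. The log2 fold changes were 0.20 ± 0.23 for persister against parental (adjusted p = 0.530), 0.09 ± 0.13 for withdrawn against persister (adjusted p = 0.565) and 0.29 ± 0.23 for withdrawn against parental cells (adjusted p = 0.59). TWIST1 shares 141 of its 2033 exon bases with AC003986.2 on the opposite strand.

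TWIST2 (ENSG00000233608, chr2:238848032-238910543, plus strand), its paralogue, moved against ZEB1 in both comparisons with persister cells. Withdrawn libraries 1 to 5 had 2.96, 1.84, 2.91, 1.85 and 1.97 CPM, persister libraries had 8.34, 4.85, 6.27, 3.89 and 4.92 CPM, and the parental library had 2.14 CPM. All persister libraries were above all others, with culture 1 the highest in both states, and the parental value lay inside the withdrawn range. These levels rest on 105 to 200 counts in withdrawn, 263 to 543 counts in persister and 140 counts in parental libraries. TWIST2 was 2.64-fold higher in persister than in parental cells (1.40 ± 0.45 on the log2 scale; adjusted p = 0.0344), a call that was lost without persister 3 (1.36 ± 0.47; adjusted p = 0.0526). It was 2.45-fold lower in withdrawn than in persister cells (-1.29 ± 0.24; adjusted p = 7.45e-04). Withdrawn and parental cells differed by 0.11 ± 0.41 on the log2 scale (adjusted p = 0.937).

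**Figure D2:**
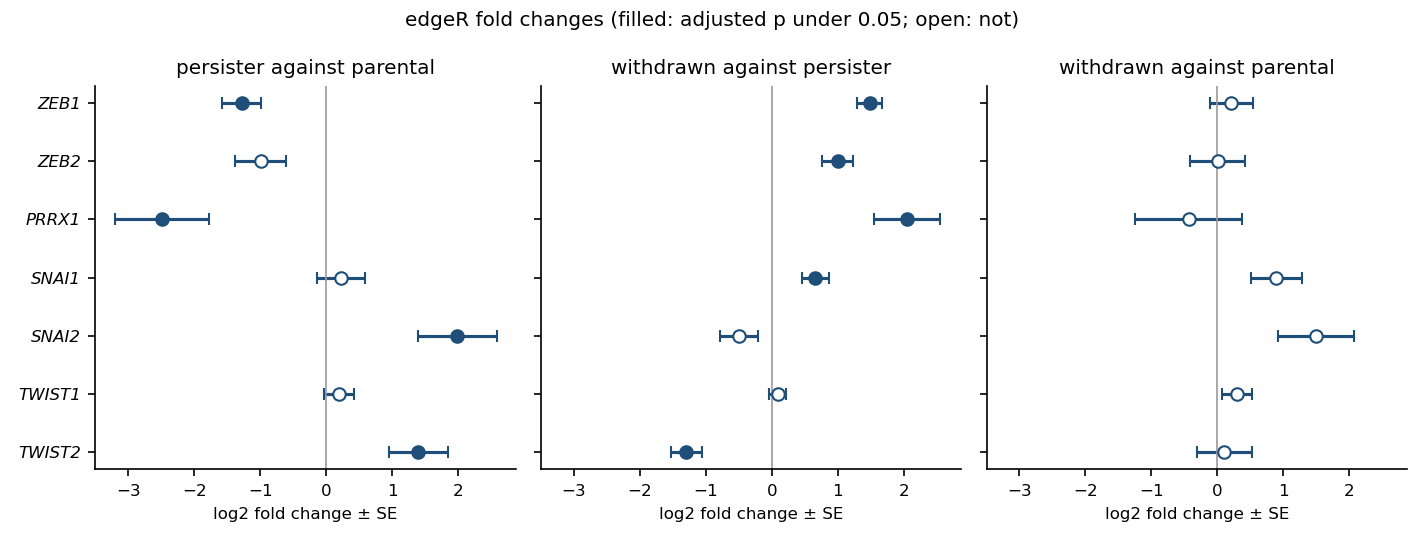
Log2 fold change with its SE (horizontal axes) of each gene in persister against parental, withdrawn against persister and withdrawn against parental cells; filled points had an adjusted p under 0.05. ZEB1 and PRRX1 lie left of 0 in persister cells and right of 0 after withdrawal, TWIST2 does the reverse, and no point is filled between withdrawn and parental cells.

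The calls against the parental library depended on how the spread was estimated. In a fit of the 5 persister libraries and the parental library alone, none of the 4 calls held: the adjusted p was 0.0737 for ZEB1, 0.0736 for SNAI2, 0.104 for TWIST2 and 0.11 for PRRX1. With no filter on low counts, SNAI2 (adjusted p = 0.0712) and PRRX1 (adjusted p = 0.0837) also missed the threshold. None of these fits turned the direction of a call. The 5 calls between withdrawn and persister cells held in every alternative that gave an adjusted p, and DESeq2 gave none for PRRX1.

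Within cultures, the change after withdrawal was set against the persister library of the same number. ZEB1, ZEB2, SNAI1 and PRRX1 were higher after withdrawal in 5 of 5 cultures and TWIST2 was lower in 5 of 5. These counts follow from the lack of overlap between the withdrawn and persister libraries of these 5 genes, given above, and add nothing to it. Such a lack of overlap was seen for 40.6% of all genes tested. The log2 ratio of TWIST2 was the most even, at -1.28 ± 0.18 (SD, n = 5), with a range of -1.49 to -1.07. ZEB1 averaged 1.55 ± 0.45, with culture 2 lowest at 0.74 and the other 4 cultures between 1.70 and 1.81. PRRX1 spanned 0.45 in culture 5 to 3.64 in culture 1, with a mean of 2.49 ± 1.22. Among withdrawn libraries the highest value was 1.14 times the lowest for ZEB1 and 1.21 times for PRRX1. ZEB2 averaged 1.10 ± 0.64 with its lowest value, 0.29, in culture 4. SNAI1 averaged 0.74 ± 0.55, from 0.11 in culture 3 to 1.54 in culture 1. SNAI2 was lower after withdrawal in 4 of 5 cultures (-0.46 ± 0.63), and culture 1 was the exception at 0.58. TWIST1 was higher in 2 of 5 cultures and lower in 3, with a mean of 0.10 ± 0.36.

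**Figure D3:**
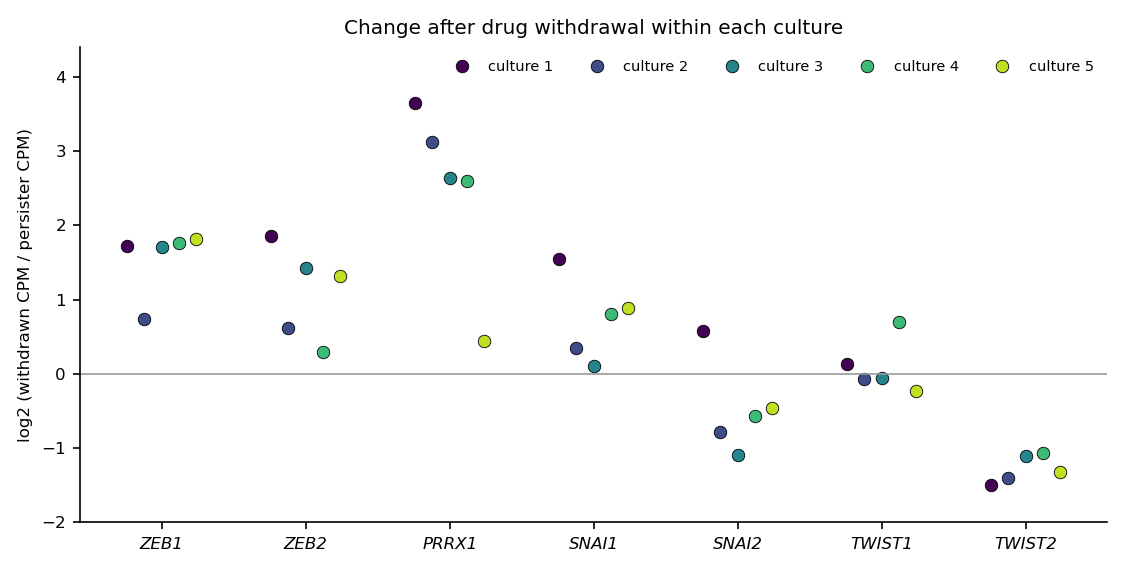
Log2 ratio of withdrawn to persister CPM (vertical axis) within each of the 5 cultures (points, coloured by culture) for the 7 genes. TWIST2 lies between -1.49 and -1.07 in all cultures, whereas PRRX1 runs from 0.45 in culture 5 to 3.64 in culture 1.

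Levels of different genes were compared as CPM per kilobase of the longest protein-coding transcript. PRRX1 was the most abundant of the 7 in withdrawn cells, at 49.2 ± 4.13 CPM per kb (SD, n = 5), and in the parental library, at 66.6 CPM per kb. In withdrawn cells it was followed by SNAI1 (17.2 ± 0.74 CPM per kb), TWIST1 (13.9 ± 2.02 CPM per kb), ZEB1 (13.4 ± 0.74 CPM per kb), ZEB2 (8.74 ± 0.42 CPM per kb), SNAI2 (6.99 ± 2.36 CPM per kb) and TWIST2 (1.64 ± 0.41 CPM per kb). Libraries overlapped between SNAI1 and TWIST1, TWIST1 and ZEB1, and ZEB2 and SNAI2, but not between the other neighbours in this order. In persister cells the highest means were those of TWIST1 (13.1 ± 1.98 CPM per kb), PRRX1 (11.9 ± 11.99 CPM per kb), SNAI1 (10.9 ± 3.75 CPM per kb) and SNAI2 (9.86 ± 4.00 CPM per kb), whose libraries overlapped. ZEB1 (4.78 ± 1.75 CPM per kb), ZEB2 (4.37 ± 1.87 CPM per kb) and TWIST2 (4.03 ± 1.23 CPM per kb) came last in persister cells and also overlapped, as did SNAI2 and ZEB1. In the parental library ZEB1 (11.6 CPM per kb), TWIST1 (11.4), SNAI1 (9.27), ZEB2 (8.71), SNAI2 (2.48) and TWIST2 (1.53 CPM per kb) followed PRRX1. With all annotated exons as the length, 25058 bases for ZEB2 against 9583 in its transcript, SNAI1 came first in persister cells, PRRX1 came after TWIST1 and SNAI2, and ZEB2 came last. On that length ZEB1 came after TWIST1 and SNAI1 in the parental library, and SNAI2 came before ZEB2 in withdrawn cells.

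The summed level of the 7 genes per kilobase was 103.8 to 124.8 in withdrawn libraries, 41.6, 56.7, 58.6, 59.9 and 77.3 in persisters 1 to 5, and 111.5 in the parental library. Every persister library was below all others. This sum is weighted by PRRX1, its largest part in the parental library, and does not describe each member. SNAI2 and TWIST2 were higher in persister than in parental cells. PRRX1 gave 42.6 to 45.7% of the sum in withdrawn libraries, 10.2, 9.74, 12.7, 15.03 and 42.7% in persisters 1 to 5, and 59.7% in the parental library. Persister 5 therefore had a PRRX1 share inside the withdrawn range with a summed level below it. SNAI2 took 4.57 to 8.55% of the sum in withdrawn, 10.8 to 26.4% in persister and 2.23% in parental libraries, and TWIST2 took 1.06 to 1.99% in withdrawn, 4.53 to 14.3% in persister and 1.37% in parental libraries. The withdrawn and persister ranges did not overlap for either share, which also carries the smaller sum in persister cells.

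**Figure D4:**
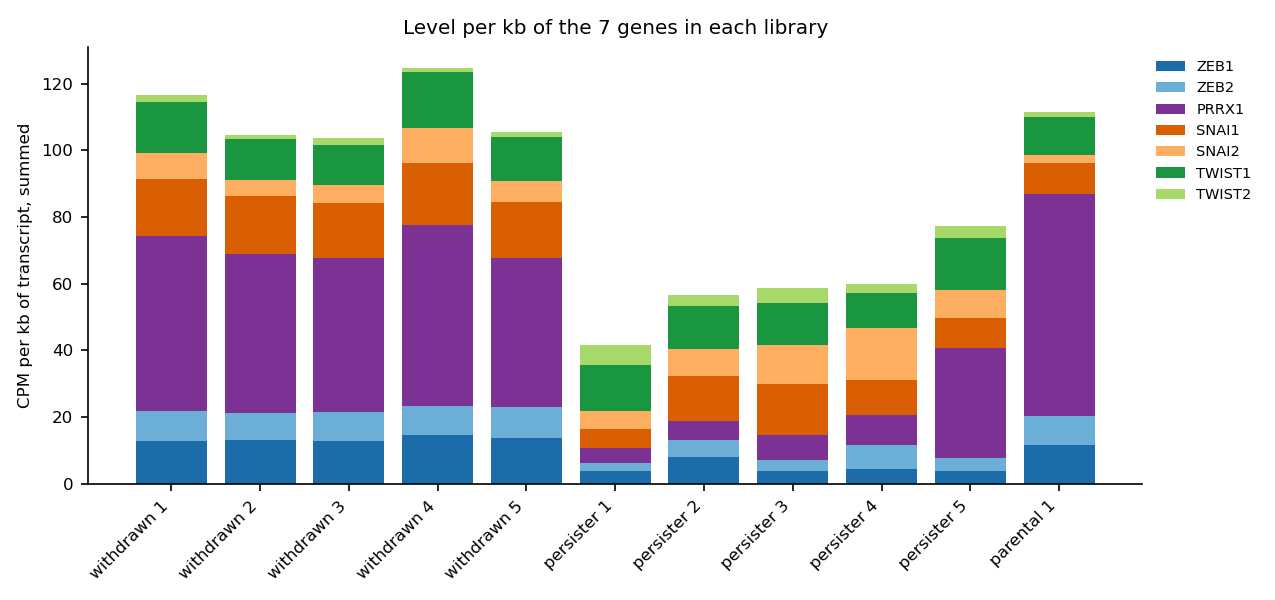
Stacked level of the 7 genes in CPM per kilobase of transcript (vertical axis, from 0) in each library, coloured by gene. The persister bars are the shortest, from 41.6 in persister 1 to 77.3 in persister 5, and the PRRX1 segment is narrow in persisters 1 to 4.

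CDH1, the E-cadherin gene and the classical target of SNAI and ZEB repression, was nearly absent throughout. It had 3 to 8 counts in withdrawn libraries, 4, 10, 3, 5 and 54 counts in persisters 1 to 5, and 2 counts in the parental library. Persister 5 alone stood apart. The pooled persister level was 7.30 times the parental one, with a 95% counting interval of 1.95 to 61.3, and edgeR did not call it (adjusted p = 0.237). Without persister 5 the ratio was 2.69 (0.661 to 23.6). CDH2, the N-cadherin gene, averaged 142.5 ± 3.85 CPM in withdrawn and 210 ± 50.0 CPM in persister cells (SD, n = 5 each) and stood at 182.5 CPM in the parental library. It fell after withdrawal (log2 fold change -0.56; adjusted p = 0.00584), and persister against parental cells gave 0.20 (adjusted p = 0.558). VIM, the vimentin gene, averaged 1761 ± 56.9 CPM in withdrawn and 1485 ± 595 CPM in persister cells, against 1477 CPM in the parental library, and passed no comparison. FN1, the fibronectin gene, averaged 429 ± 206 CPM in withdrawn and 390 ± 255 CPM in persister cells, against 158 CPM in the parental library, and passed none either (adjusted p = 0.337 for persister against parental cells).

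Of 30 epithelial genes known to be held down by these factors, 25 were tested. Persister against parental cells gave 3 rises and 2 falls, 12% and 8% of those tested, beside 16.1% and 15.1% of all genes tested. The median log2 fold change was 1.49 (1.27 with ST14, at 0 counts in the parental library, set to its lower bound) beside 0.09 over all genes tested. Several genes of this list had few parental counts, among them PRSS8 (1), CDH1 (2), MARVELD3 (2), CLDN7 (3), TJP3 (3), MARVELD2 (3), OCLN (7) and EPCAM (8). AP1M2, an epithelial adaptor protein subunit, averaged 15.5 CPM in persister cells and had 1.74 CPM in the parental library (log2 fold change 3.15; adjusted p = 0.00933). F11R, a tight junction protein, and MAL2, a membrane transport protein, also rose, by 1.55 and 5.12 on the log2 scale (adjusted p = 0.015 and 0.0151). SPINT1, a protease inhibitor, had a log2 fold change of -1.93 and CLDN4, a claudin, one of -1.70 (adjusted p = 0.0172 and 0.0178). MAL2 missed the threshold with no filter on low counts (adjusted p = 0.058) and with limma-voom (adjusted p = 0.0898). Withdrawn against persister cells gave 2 rises and 10 falls among the 25 (8% and 40%, beside 24.5% and 28.0% of all genes tested). The median was -0.99 beside -0.03 over all genes, and withdrawn against parental cells gave no call among them. Of 7 keratinocyte markers, 5 were tested. In persister against parental cells 3 rose and 1 fell, 60% and 20% beside 16.1% and 15.1% of all genes tested. After withdrawal 1 rose and 4 fell, 20% and 80% beside 24.5% and 28.0% of all genes tested. TP63 and IVL had 0 parental counts and KRT5 had 1. The summed level of the keratinocyte markers was 35.1 to 39.2 CPM in withdrawn, 48.3 to 61.0 CPM in persister and 40.3 CPM in parental cells. KRT10 made up most of it, KRT1 was at 0 in all libraries, and IVL had 0 counts in withdrawn, 26 to 81 counts in persister and 0 counts in parental libraries. KRT14 went the other way, with 61 to 152 counts in withdrawn, 2 to 60 counts in persister and 351 counts in parental libraries. Their part in the epithelial values was not tested.

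All 28 mesenchymal genes were tested. Persister against parental cells gave 15 rises and 3 falls, 53.6% and 10.7% beside 16.1% and 15.1% of all genes tested. The median log2 fold change was 1.58 beside 0.09 over all genes tested. MMP2, a matrix metalloproteinase, averaged 187 CPM in withdrawn and 778 CPM in persister cells, against 98.95 CPM in the parental library (log2 fold change 2.98 for persister against parental; adjusted p = 3.45e-05). COL5A2, a fibrillar collagen, and ACTA2, smooth muscle actin, rose by 1.83 and 4.68 on the log2 scale (adjusted p = 5.79e-04 and 7.05e-04). The 3 that fell were COL6A3 (-3.12), S100A4 (-0.996) and TNC (-1.78), and the TNC call (adjusted p = 0.0496) was lost in 10 of 17 alternatives, among them leaving out persister 1 (0.0728), persister 2 (0.0748) or any 1 withdrawn library (0.0659 to 0.0707). Withdrawn against persister cells gave 3 rises and 20 falls, 10.7% and 71.4% beside 24.5% and 28.0% of all genes tested. The median was -1.12 beside -0.03 over all genes tested. FAP, a fibroblast surface protease named after its values were seen, was the 1 mesenchymal gene called between withdrawn and parental cells (4.09 on the log2 scale; adjusted p = 0.0393). Of 11 fibroblast markers, 9 of which are on the mesenchymal list, 7 rose and 1 fell in persister against parental cells. These were 63.6% and 9.09% of the markers, beside 16.1% and 15.1% of all genes tested. The summed level of the fibroblast markers was 42.7 to 68.0 CPM in withdrawn, 189 to 3388 CPM in persister and 22.9 CPM in parental cells. No marker was at 0 in all libraries of a group. POSTN in persister 4, at 3203 CPM, set the upper end, and the persister range without that library was 189 to 586 CPM. The part of other cell types in these values was not tested.

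TWIST factors work as dimers with E proteins and are blocked by ID proteins, which bind E proteins but not DNA. Of 9 such genes 8 were tested. In persister against parental cells 4 rose and 3 fell, 50% and 37.5% beside 16.1% and 15.1% of all genes tested. ID1 averaged 64.1 CPM in withdrawn and 160 CPM in persister cells, against 51.6 CPM in the parental library, a log2 fold change of 1.63 for persister against parental cells (adjusted p = 0.00537). ID2 averaged 2.78 CPM in withdrawn and 30.3 CPM in persister cells, against 3.79 CPM in the parental library (3.00; adjusted p = 0.00708). ID3 averaged 62.5 CPM in withdrawn and 264 CPM in persister cells, against 31.4 CPM in the parental library (3.07; adjusted p = 0.00187). These inhibitors were high in persister cells, but ID4 was not, at 4.69 CPM in withdrawn, 2.42 CPM in persister and 8.58 CPM in parental cells (-1.82; adjusted p = 0.0216). Among E proteins, TCF4 rose by 0.87 on the log2 scale in persister cells (adjusted p = 0.0248). TCF12 had a log2 fold change of -1.04 (adjusted p = 5.58e-04) and TCF3 one of -0.72 (adjusted p = 0.0167). All 8 changed after withdrawal, 4 up and 4 down, where 52.5% of all genes tested were called (24.5% higher and 28.0% lower). However, the rise of TCF3 (0.35, adjusted p = 0.0284) and that of ID4 (0.95, adjusted p = 0.0373) were lost when single libraries were left out. For TCF3 these were persister 1 or 3 and any 1 withdrawn library (adjusted p = 0.0504 to 0.0673). For ID4 they were persister 1, 2 or 3 and withdrawn 1, 2, 4 or 5 (adjusted p = 0.052 to 0.0781).

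Corepressors and other chromatin partners of SNAI and ZEB proteins, not all of them repressors, numbered 26. Of these, 2 rose and 7 fell in persister against parental cells, 7.69% and 26.9% beside 16.1% and 15.1% of all genes tested. The median log2 fold change was -0.40 beside 0.09 over all genes tested. AJUBA, a LIM protein that binds SNAI1, rose by 1.97 (adjusted p = 0.0137) and CTBP1, a ZEB corepressor, by 0.35 (adjusted p = 0.0282). CTBP1 missed the threshold with no filter on low counts (adjusted p = 0.128). SIN3A, CTBP2 and the demethylase KDM1A had log2 fold changes of -0.94, -0.70 and -0.95 (adjusted p = 5.58e-04, 0.00153 and 0.00154). After withdrawal 11 rose and 4 fell relative to persister cells, 42.3% and 15.4% beside 24.5% and 28.0% of all genes tested. The median was 0.21 beside -0.03 over all genes tested. The fall of CTBP1 then (-0.18; adjusted p = 0.023) was lost without withdrawn 1 (adjusted p = 0.0535) or withdrawn 4 (adjusted p = 0.0549).

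Of 19 kinases, ubiquitin ligases and other proteins that act on SNAI and ZEB proteins, none rose and 7 fell in persister against parental cells. These were 0% and 36.8% of the list, beside 16.1% and 15.1% of all genes tested. The median log2 fold change was -0.49 beside 0.09 over all genes tested. The list was not split by whether a protein stabilises or degrades its target. GSK3B, which marks SNAI1 for degradation, averaged 227 ± 19.8 CPM in withdrawn and 117 ± 11.6 CPM in persister cells (SD, n = 5 each), against 299.6 CPM in the parental library. Its log2 fold change was -1.35 in persister against parental cells (adjusted p = 6.7e-05) and 0.95 in withdrawn against persister cells (adjusted p = 7.63e-06). CSNK2A1 and ATM had log2 fold changes of -0.80 and -0.74 in persister against parental cells (adjusted p = 0.00324 and 0.0107). After withdrawal 10 of the 19 rose and 2 fell, 52.6% and 10.5% beside 24.5% and 28.0% of all genes tested. The median was 0.42 beside -0.03 over all genes tested.

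Among 16 other factors that drive the transition, 13 were tested. In persister against parental cells 3 rose and 4 fell, 23.1% and 30.8% beside 16.1% and 15.1% of all genes tested. SOX9, a neural crest factor, averaged 1.97 CPM in withdrawn and 133 CPM in persister cells and had 0.138 CPM, 9 counts, in the parental library (log2 fold change 9.90; adjusted p = 0.00225). SOX4 rose by 1.92 (adjusted p = 0.025), a call lost with no filter on low counts (adjusted p = 0.0753), and TCF4 is described above. FOXC1, a forkhead factor, averaged 43.6 CPM in withdrawn and 12.8 CPM in persister cells, against 33.8 CPM in the parental library (-1.41; adjusted p = 3.78e-04). PRRX2, the paralogue of PRRX1, had 26 to 57 counts in withdrawn, 0, 0, 1, 0 and 6 counts in persister and 27 counts in parental libraries (adjusted p = 0.00592 for persister against parental cells). PRRX2 and PRRX1 were thus both low in persister cells and both highest among persisters in culture 5. TEAD1 had a log2 fold change of -0.65 (adjusted p = 0.0119). SNAI3, the third SNAI gene, had 2 to 11 counts in withdrawn, 26, 1, 18, 31 and 40 counts in persister and 1 count in parental libraries. The pooled ratio of persister to parental was 22.3 (95% counting interval 3.92 to 887). It rests on 1 parental count, and edgeR did not call SNAI3 in persister against parental cells. Withdrawn against persister cells gave 6 rises and 4 falls in this list, 46% and 31% beside 24.5% and 28.0% of all genes tested.

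Epithelial transcription factors that oppose the 7 genes were 13, of which 9 were tested. In persister against parental cells 2 rose and 2 fell, 22.2% each beside 16.1% and 15.1% of all genes tested. FOXA1 averaged 1.02 CPM in withdrawn and 11.6 CPM in persister cells and had 1.15 CPM in the parental library (log2 fold change 3.33; adjusted p = 0.00283). TP63 had 5 to 21 counts in persister libraries and 0 in the parental library, at least 4.16-fold higher taking 3 parental counts as the floor. GRHL1 and KLF5 fell by 2.17 and 1.81 on the log2 scale (adjusted p = 0.00858 and 0.0146). GRHL2 and OVOL1, which repress ZEB1 in epithelia, had at most 6 counts in any library and were not tested, and OVOL2 had at most 18. After withdrawal 3 of the 9 rose and 2 fell, 33.3% and 22.2% beside 24.5% and 28.0% of all genes tested. Of 5 antisense and host RNAs (ZEB1-AS1, ZEB2-AS1, SNAI3-AS1, MIR200CHG and MIR205HG), 2 were tested, and SNAI3-AS1, which is antisense to no member and was named after its values were seen, fell after withdrawal (-0.90; adjusted p = 0.0121). In a fit of the persister and parental libraries alone, 22 of the 35 calls among the named genes of these lists were lost.

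**Figure D5:**
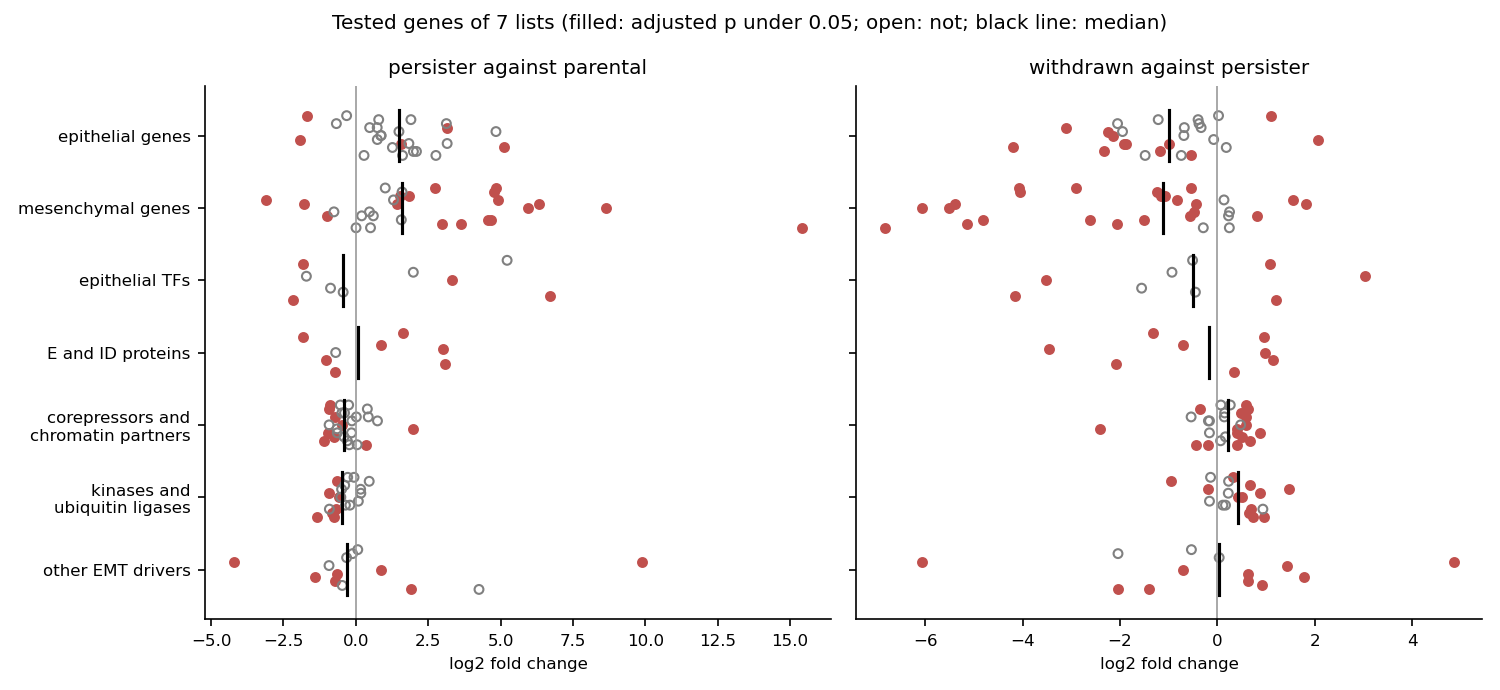
Log2 fold change (horizontal axes) of the tested genes of 7 lists in persister against parental and withdrawn against persister cells; filled points had an adjusted p under 0.05 and black lines mark medians. The medians of the epithelial (1.49) and mesenchymal genes (1.58) both lie right of 0 in persister cells and left of 0 after withdrawal. Several epithelial genes had few parental counts, and the point farthest right, POSTN, rests on 1 parental count.

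The genes whose level followed each member most closely were found among 11551 protein-coding genes by Pearson's r of log2 CPM over the 11 libraries, which share 3 groups and 5 cultures. For ZEB1 they were MBOAT1 (r = 0.99), IBTK (0.99) and POLR3G (0.99), and LTBP2 was the most opposed (-0.99). For ZEB2 they were ADD3 (0.98), ZNF543 (0.98) and RHOJ (0.98), with NOP10 most opposed (-0.97). PRRX1 was followed by GORAB (0.98), KIFAP3 (0.98) and TRIM62 (0.98), with MRPL49 opposed (-0.99). TWIST2 was followed by AMPD3 (0.97), EXOSC4 (0.96) and MMP3 (0.96), with PPM1A opposed (-0.98). With libraries in groups, these values include the differences between the groups. For SNAI1 they were ICAM5 (0.95), H1FX (0.94) and CEP57L1 (0.91), against IP6K1 (-0.95), and for SNAI2 PCSK2 (0.94), PRIMA1 (0.93) and PPP2R2B (0.92), against PPP1R9A (-0.92). TWIST1, which passed no comparison, had the lowest values, with ZNF500 (0.85), AKR1C2 (0.81) and RARG (0.79), against PHLDB2 (-0.83). Among the members, ZEB1 and ZEB2 gave r = 0.87, and TWIST2 gave -0.88 with ZEB1, -0.92 with ZEB2 and -0.86 with PRRX1.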

How the data were processed

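Read counts per gene were analysed for 11 poly(A) RNA libraries. A QIAGEN RNeasy kit and the KAPA stranded kit were used, per the labels' protocols. Per the submitters' processing notes, the authors used bcl2fastq, HISAT2 with hg38, and HTSeq. The sources used here give no versions, annotation release or strand setting. The authors deposited whole-number counts, neither normalized nor pooled. Where genes overlap on opposite strands, their reads may be mixed.

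All 58721 identifiers matched GENCODE 29, from which symbols, GRCh38 coordinates and transcript lengths were taken. The test was edgeR 4.0.16 under R 4.3.3 (filterByExpr with minimum count 10 and minimum total 15, TMM, robust quasi-likelihood fits of all 11 libraries in 3 groups with 8 residual degrees of freedom, Benjamini-Hochberg adjustment over 23693 genes, threshold 0.05). The residual degrees of freedom come from the withdrawn and persister libraries. For correlations, log2 CPM had a prior count of 2. Genes at 0 counts in a group were set against a floor of 3 counts, and floors and counting intervals cover counting error only. The procedure was tested on simulated counts in which each gene had the same spread in all 3 groups. That simulation could not check calls where the spread differs between groups, as it did between persister and withdrawn libraries.

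The members, the gene lists and the rule for naming genes were chosen with earlier results of these data known. Named from each list were the genes with the 3 smallest adjusted p in each direction in persister against parental cells, with CDH1, CDH2, VIM and FN1 always, and for each member the 3 most similar genes and the 1 most opposed. The label of each withdrawn sample carries the name of its persister culture, so equal numbers are pairs. Deviations of same-numbered libraries from their group means correlated at 0.0484 to 0.0909 across genes, highest for the own number in 5 of 5. No libraries were duplicates: the mean chi-square per gene between replicates was at least 11.5. Alternatives were DESeq2-type size factors, no filter on low counts, at least 10 counts in 5 libraries, DESeq2 1.42.0, limma-voom (limma 3.58.1), only the 2 groups compared, each replicate left out, persisters 1 and 5 left out, and the culture number as a block. Promoters and miRNAs came from RefSeq tables of GRCh38.p14, and motifs were searched as exact letters. Protein sequences were not used here.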

Additional observations from a re-analysis of the deposited data

Results flagged for a closer look

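In 5 of the 92 sets of persister or withdrawn libraries examined for members and named genes, 1 library lay far from the other 4, and chance gives about 1 in 20 such sets. All 5 were persister libraries. ZEB1 had 49.4 CPM in persister 2, with 24.3 to 27.0 CPM in the others. PRRX1 had 141.5 CPM in persister 5, with 18.1 to 38.6 CPM in the others. PRRX2, its paralogue, was also highest in persister 5, at 0.0819 CPM against 0 to 0.0152 CPM. CDH1 was highest there too, at 0.738 CPM against 0.0457 to 0.184 CPM. AJUBA was lowest in persister 5, at 30.5 CPM against 66.0 to 73.5 CPM. The state of this culture, in which MKI67 stood at 45.4 CPM, and its part in these values were not tested.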

How the results depend on the processing

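The number of members called between persister and parental cells was 4, 2 with no filter on low counts, 0 with only those groups in the fit, and 3 to 5 when single replicates were left out. Between withdrawn and persister cells 5 were called, and 5 when any replicate was left out; the replicate block gave 5 as well (PRRX1 2.52, TWIST2 -1.29) and changed no call of a member or of the named genes it tested. Over all genes the block gave 10630 calls, against 11057 without it in the same 10 libraries and 12428 with the parental library in the fit. Between withdrawn and parental cells 0 members were called, 2 with only those groups in the fit and 1 without persisters 1 and 5. Over all genes, persister against parental cells gave 7391 calls, and 2569 with only those groups. Withdrawn against parental cells gave 102 calls, but 155 with at least 10 counts in 5 libraries, 1184 with DESeq2, 6593 with only those groups, 2086 without persisters 1 and 5, and 23 to 558 when single replicates were left out. Signs turned only for values that were not called: VIM in persister against parental cells (-0.004 with DESeq2-type size factors and with DESeq2, -0.10 with limma-voom, -0.21 to 0.20 when single replicates were left out), FN1 in withdrawn against persister cells (-0.11 without persisters 1 and 5, -0.12 to 0.52 without single replicates), and, against parental cells after withdrawal, ZEB2 (-0.019 with DESeq2-type size factors and DESeq2, -0.008 with at least 10 counts in 5 libraries, -0.009 with only those groups, -0.022 to 0.025 without single replicates), TWIST2 (-0.006 to 0.18), AP1M2 (-0.17 to 0.14) and ATM (-0.036 to 0.013) without single replicates. The cause was not tested. The single parental library and the persister spread limit every call against parental cells, and low counts limit CDH1, SNAI3, PRRX2 and TP63.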

Other observations

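The genes next to PRRX1 on chromosome 1 were looked at after GORAB and KIFAP3 had come out as the genes most like it, so they were chosen after values were seen. GORAB, the nearest such gene on the left of PRRX1, lies 109.3 kb away and encodes a Golgi protein. It had 22.0 to 25.3 CPM in withdrawn libraries, 9.37 to 15.2 CPM in persisters 1 to 4 and 18.3 CPM in persister 5, and 25.8 CPM in the parental library. It was lower in persister than in parental cells (log2 fold change -0.94; adjusted p = 0.0159) and higher after withdrawal (0.79; adjusted p = 0.00142, edgeR). KIFAP3, 577.5 kb away, which encodes a kinesin-associated protein, had 87.5 to 90.8 CPM in withdrawn libraries, 48.3 to 59.9 CPM in persisters 1 to 4, 88.1 CPM in persister 5 and 87.5 CPM in the parental library. Its log2 fold change was -0.52 in persister against parental cells (adjusted p = 0.12) and 0.55 in withdrawn against persister cells (adjusted p = 0.00723). Of the 6 neighbours examined, all but PRRC2C were, like PRRX1, highest among persisters in culture 5. GORAB and KIFAP3 were picked for a likeness to PRRX1 that includes this library. The share of all genes highest in persister 5 was not determined, so this count does not single out the region. SCYL3, the next such gene on the side of GORAB and KIFAP3, was less like PRRX1 (r = 0.89 over 11 libraries). On the other side FMO4, 574.8 kb away, had r = -0.20, PRRC2C 0.72 and VAMP4 0.87.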
